A study of Mus musculus with 6 samples.

Results

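The mucins and goblet cell secretory genes described here are the gel-forming mucin Muc5ac, the membrane mucins Muc1, Muc4 and Muc16, and Agr2, Tff1, Gp2, Spdef, Fcgbp and Clca1. They were chosen by symbol, with earlier results of these data known, and 9 of the 10 had a row among the 23841 named genes in the deposited table. Muc16 had no row under its symbol, and Muc1 had a second row of trace level. RNA-seq of polyadenylated transcripts was done on whole corneas of female C57BL/6J mice aged 6 to 8 weeks. The 3 groups, of 2 samples each, were unburned corneas (day 0), corneas at day 5 and corneas at day 15 of recovery from a burn with alkali, which injures the surface chemically and is followed by growth of blood vessels into the clear tissue. No mutation and no other agent is named for any group, and it is not stated if samples of the same group are separate animals. Expression was given by the authors as 1 FPKM (a fragment count scaled to transcript length and to library size) and 1 interval for each group, pooled over its samples. Spread between samples is thus unknown, and no test or p-value could be given. The range in parentheses after an FPKM is the authors' interval.

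Mucins are long proteins that carry dense O-linked sugar chains. Gel-forming mucins are packed into granules and secreted by goblet cells, which at the ocular surface lie in the conjunctiva and are rare or missing in the normal central cornea. Membrane mucins stay anchored on the surface epithelium of both cornea and conjunctiva and form the glycocalyx that holds the tear film. Goblet cells depend on a set of helper genes for maturation (Spdef), protein folding (Agr2) and the composition of the mucus (Tff1, Fcgbp).

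Muc5ac, Tff1, Gp2 and Spdef each had an FPKM under 1 in day 0 corneas and between 5.43 and 162 at day 15. The membrane mucins Muc1 and Muc4 followed other courses. Muc5ac, Tff1, Gp2, Agr2 and Spdef had their lowest FPKM at day 0, an intermediate value at day 5 and their highest value at day 15. Muc1 reached its later level by day 5 and stayed there, Muc4 had nearly the same value in all 3 groups, and Fcgbp had its lowest value at day 5. A row was called apart between 2 groups when 3 conditions held: the group with more had an FPKM of 1 or above, the log2 ratio of (FPKM + 1) was 1 or more in either direction, and the authors' intervals did not overlap. Against day 0, 4 of the 9 genes were higher and apart at day 5 (Muc5ac, Muc1, Agr2 and Gp2), beside 3.42% of the 15576 rows compared. At day 15, 6 of 9 were higher and apart from day 0 (Tff1 and Spdef in addition to those), beside 2.91% of 15186 rows. Between day 5 and day 15, 5 of 9 were higher and apart at day 15 (Muc5ac, Agr2, Tff1, Gp2 and Fcgbp), beside 0.395% of 14683 rows. None of the 9 was lower and apart in any of the 3 comparisons, where 2.5%, 1.81% and 0.388% of rows were. At day 5 against day 0, only 8 of the 9 met the condition on FPKM. Genes with an FPKM under 1 at day 0 could not be called lower in the comparisons with day 0. The 3 comparisons share their groups and are not independent of one another. Because the genes were chosen with earlier results of these data known, the counts beside these shares are description only. The same shares stand beside the counts of the other gene lists given below.

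Over the 9 genes, the median log2 ratio to day 0 was 1.37 at day 5 and 2.80 at day 15, and the median ratio of day 15 to day 5 was 1.53. The corresponding medians over all rows compared were -0.09, -0.10 and -0.01. FPKM was at least 1 for 4 of the 9 genes at day 0, for 8 at day 5 and for all 9 at day 15, so that 5 of them could enter the comparisons with day 0 only through a higher value after the burn. In whole corneas a change in the number of cells of a type cannot be told apart from a change in RNA per cell.

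**Figure D1:**
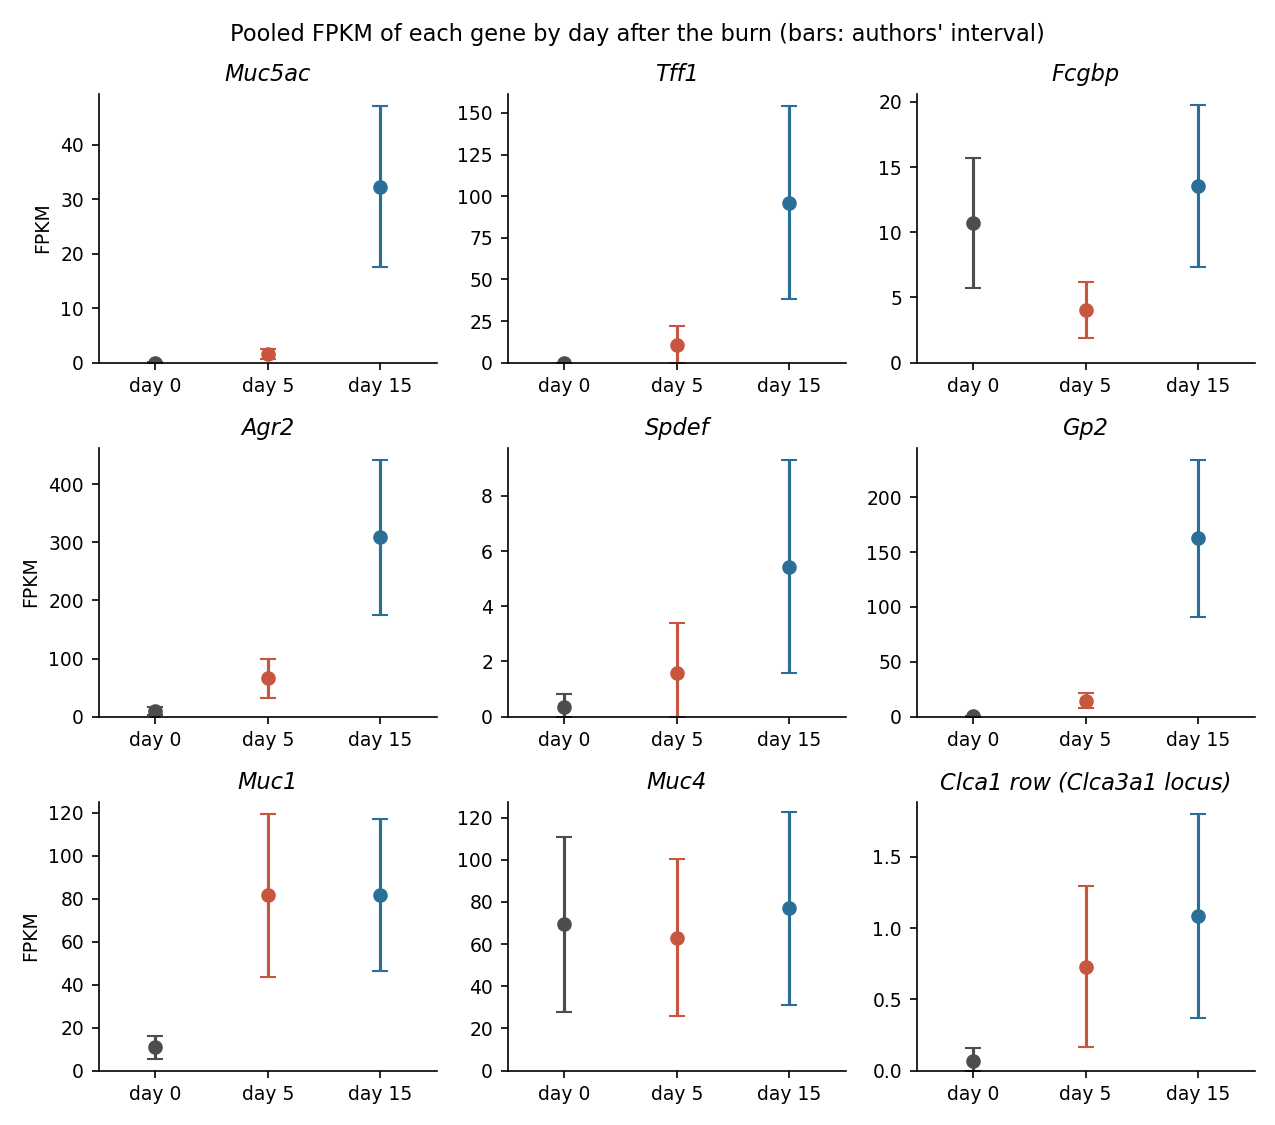
Pooled FPKM (y axis, linear, own scale for each gene) at day 0, day 5 and day 15 (x axis) for the 9 genes with a row; points are the authors' FPKM and bars their interval. Muc5ac, Tff1, Agr2, Spdef and Gp2 climb to day 15, Muc1 sits at 81.6 and 81.8 on both days after the burn, and the 3 intervals of Muc4 overlap.

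Muc5ac, the main gel-forming mucin of conjunctival goblet cells, spans 141788972 to 141819231 on the plus strand of chromosome 7 (mm10). Its FPKM was 0.0104 (0 to 0.0403) at day 0, 1.61 (0.715 to 2.51) at day 5 and 32.3 (17.6 to 47.0) at day 15. The 3 intervals did not overlap, and the day 5 value was 4.99% of the day 15 value. The lower bound at day 15 was 7.02 times the upper bound at day 5. The day 0 level was so low that a fold against it has little meaning. On the log2 scale with a pseudocount of 1, Muc5ac was higher by 1.37 at day 5 and by 5.04 at day 15 than at day 0.

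Muc5ac lies in a cluster of 4 gel-forming mucin genes on chromosome 7, in the order Muc6, Muc2, Muc5ac and Muc5b. Its neighbour Muc5b, the gel-forming mucin of airway glands (141839070 to 141873084, plus strand), had FPKM values of 0.0154 at day 0, 0.513 (0.165 to 0.860) at day 5 and 4.41 (2.40 to 6.42) at day 15. Muc5b was higher and apart at day 15 from both earlier groups, and the FPKM of Muc5ac at day 15 was 7.32 times that of Muc5b. Muc2, the gel-forming mucin of intestinal goblet cells on the other side of Muc5ac (141690340 to 141754693), stayed at 0.0134, 0.0336 and 0.0154. Muc6, a gel-forming mucin of gastric glands (141633456 to 141655319, minus strand), stayed at 0.0394, 0.119 and 0.0999. Of the 4 genes in the cluster, the pair Muc5ac and Muc5b was therefore higher at day 15, and Muc2 and Muc6 were near 0 in every group.

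Among other secreted mucins and mucus proteins, 13 of 14 had a row. At day 15, 1 of the 13 was higher and apart from day 0 (Muc5b), and at day 5 it was Bpifb1, a secreted protein of airway and ocular mucus with FPKM of 3.81 (0.232 to 7.40) at day 0, 19.1 (8.27 to 30.0) at day 5 and 16.4 (7.22 to 25.6) at day 15. The median log2 ratio of the 13 was 0.00 at day 15 against day 0. FPKM was under 1 for 12 of them at day 0 and for 10 at day 15, where the pseudocount of 1 holds ratios near 0. The intestinal goblet cell products Tff3 and Zg16 and the airway protein Bpifa1 were listed at 0 in all 3 groups.

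Tff1, a trefoil peptide that is secreted with Muc5ac and binds mucin sugars, was listed at 0 at day 0. Its FPKM reached 10.5 (0 to 22.1) by day 5 and 96.2 (38.3 to 154) by day 15. The day 5 interval reached 0 and overlapped the listed 0 of day 0, so Tff1 was apart from day 0 at day 15 and not at day 5. It was 9.17-fold higher at day 15 than at day 5. The annotated gene (chromosome 17, 31161395 to 31165277, minus strand) is shorter than the row's locus, which is 3.17 times as long, and 221 of its exon bases overlap a gene on the other strand (Gm15318).

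Fcgbp encodes a large secreted protein that is bound into the mucus network and carries repeated domains shared with gel-forming mucins (chromosome 7, 28071236 to 28120862, plus strand). Unlike Muc5ac, it was present at day 0, at 10.7 (5.76 to 15.7). It was at 4.06 (1.92 to 6.20) at day 5 and 13.6 (7.37 to 19.8) at day 15. The day 5 and day 15 intervals did not overlap, and Fcgbp was 3.34-fold higher at day 15 than at day 5. The day 0 and day 5 intervals overlapped narrowly, with a log2 ratio of -1.21, and the call for that difference turned with the way the intervals were compared: it was lower and apart when their widths were combined as a root sum of squares. The intervals of day 15 and day 0 overlapped over much of their range, with a log2 ratio of 0.31. Among the 9 genes, Fcgbp and Muc4 were the ones with a lower FPKM at day 5 than at day 0.

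The row named Clca1 did not hold the goblet cell gene. Several mouse genes of this family, secreted regulators of chloride channels, carry older symbols in the table, and the row Clca1 (chromosome 3, 144730042 to 144760982) lies on the gene now called Clca3a1, for which RefSeq lists Clca1 as an older symbol. Its FPKM was 0.0686 (0 to 0.155) at day 0, 0.729 (0.163 to 1.30) at day 5 and 1.08 (0.366 to 1.80) at day 15. The intervals after the burn did not overlap that of day 0, but the log2 ratios of 0.69 and 0.96 fell short of 1. The goblet cell gene now called Clca1 (145003817 to 145032776, minus strand) carries the older name Clca3 in the table. That row, which was looked up after the mismatch was seen, had 0.200 (0 to 0.466), 0.544 (0 to 1.10) and 0.946 (0 to 1.97), with overlapping intervals throughout. Neither row went above an FPKM of 1.08 in any group. Of 8 rows of the family, 5 carried a symbol that differs from the current name of the gene at that position.

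Within the rest of the family, 1 of 6 listed genes with a row was higher and apart at both days after the burn. This was Clca3b, with 1.08 (0.567 to 1.59) at day 0, 6.74 (3.88 to 9.60) at day 5 and 3.59 (1.88 to 5.30) at day 15. Clca4a was at 4.46 (1.41 to 7.51), 4.03 (1.64 to 6.42) and 10.6 (5.39 to 15.8) and was not apart. The row Clca4c, now annotated as a pseudogene and named here after its values were seen, had the highest values of the family, at 109 (37.5 to 180), 73.1 (27.5 to 119) and 209 (94.0 to 324), with overlapping intervals. Genes of this family are similar in sequence, and how shared reads were assigned to them is not given in the sources used here.

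**Figure D2:**
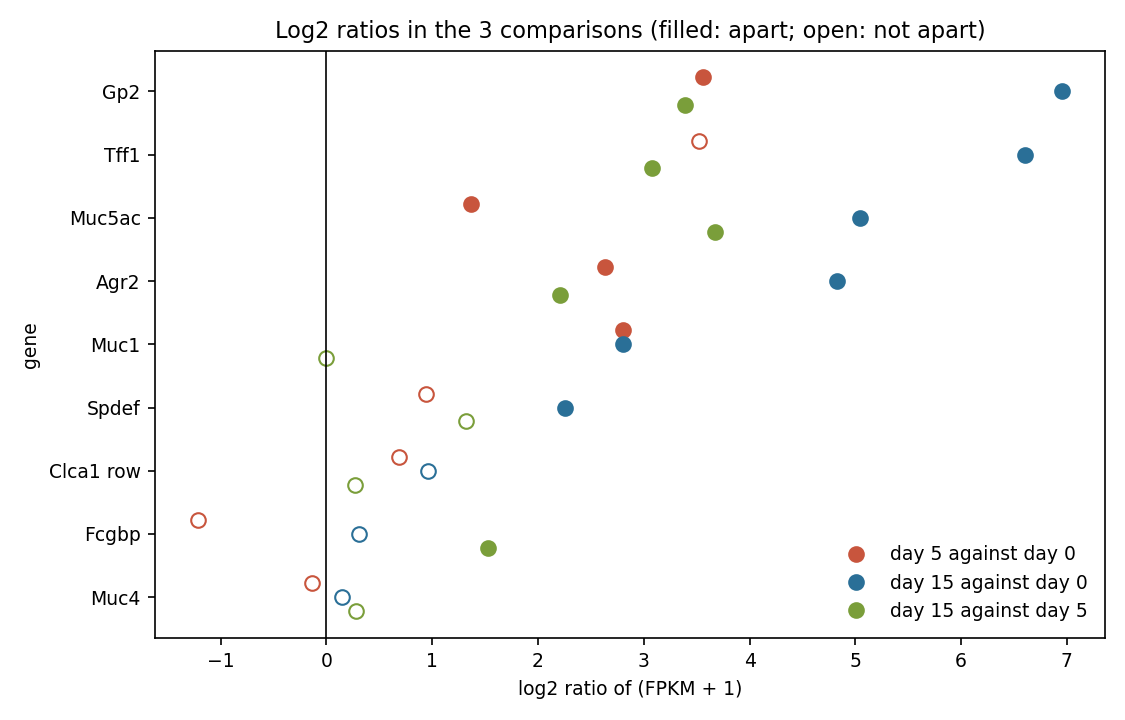
Log2 ratio of (FPKM + 1) (x axis) for each gene (y axis) in the 3 comparisons, by colour; filled points are apart and open points are not. Gp2, Tff1, Muc5ac and Agr2 have the highest ratios at day 15 against day 0, between 4.83 and 6.95, and Muc1 has ratios of 2.80 at both days and 0.00 between them.

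Agr2 is a protein disulfide isomerase of the endoplasmic reticulum that is needed to make gel-forming mucins (chromosome 12, 35992907 to 36004087, plus strand). It stood at 9.86 (2.30 to 17.4) at day 0, 66.0 (32.5 to 99.6) at day 5 and 308 (175 to 441) at day 15, with no overlap between any 2 of the intervals. It was 6.70-fold higher at day 5 than at day 0 and 31.3-fold higher at day 15, when it had the highest FPKM of the 9 genes. Its paralogue Agr3 was listed at 0 at days 0 and 5 and had 0.0256 at day 15.

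Of 14 other genes of mucin folding and secretory stress, all with a row, 1 was higher and apart at day 5 (Sec24d) and 1 at day 15 (Ern2). None was lower and apart. The shares of all rows that were higher and apart were 3.42% and 2.91%. Ern2, a stress sensor of the endoplasmic reticulum in mucus-secreting epithelia, was listed at 0 before the burn, with 0.275 (0 to 0.595) at day 5 and 2.28 (0.565 to 3.99) at day 15. Sec24d, a coat protein of transport vesicles, had 5.85 (2.83 to 8.86), 16.5 (9.03 to 23.9) and 14.9 (8.31 to 21.5). The median log2 ratio of the list was 0.36 at day 5 and 0.38 at day 15 against day 0.

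Spdef, an ETS transcription factor required for goblet cell maturation (chromosome 17, 27714352 to 27728955, minus strand), was the least abundant of the genes that were apart at day 15. It had 0.345 (0 to 0.811) at day 0, 1.58 (0 to 3.39) at day 5 and 5.43 (1.57 to 9.29) at day 15. The intervals of days 0 and 15 did not overlap, and the day 5 interval overlapped both. Its log2 ratio at day 15 against day 0 was 2.26.

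Of 12 other transcription factors of secretory and goblet cells, 1 was higher and apart at both days after the burn and 1 was lower and apart at day 5. Over all rows compared, 3.42% were higher and apart at day 5 and 2.91% at day 15, and 2.5% were lower and apart at day 5. Foxa1, a forkhead factor of secretory epithelia, had 0.134 (0 to 0.357) at day 0, 3.39 (0.833 to 5.94) at day 5 and 2.37 (0.414 to 4.32) at day 15. Klf4, a factor of differentiating surface epithelium and of goblet cells, had 73.1 (40.3 to 106) at day 0, 27.0 (15.0 to 39.1) at day 5, where it was lower and apart, and 31.8 (17.4 to 46.2) at day 15. Foxa2 and Atoh1, the latter a determinant of intestinal secretory cells, were listed at 0 in every group.

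Gp2 encodes a glycoprotein anchored in the outer membrane leaflet, best known from secretory granules of the pancreas and from M cells, the antigen-sampling cells of mucosal epithelium (chromosome 7, 119442537 to 119459285, minus strand). Its FPKM was 0.321 (0 to 0.730) at day 0, 14.6 (7.53 to 21.7) at day 5 and 162 (91.3 to 234) at day 15. The 3 intervals were separate from one another, and Gp2 had the highest log2 ratio of the 9 genes at day 15 against day 0, at 6.95. The lower bound at day 15 was 4.21 times the upper bound at day 5 and 125 times that at day 0. Of 8 other M cell genes, 2 were higher and apart at day 5 (Tnfaip2 and Ccl9) and none at day 15, beside 3.42% and 2.91% of all rows. Tnfaip2 had 4.50 (1.44 to 7.56), 41.1 (22.1 to 60.0) and 13.7 (6.79 to 20.5), and was lower and apart at day 15 against day 5, while Gp2 was higher and apart. The M cell regulators Spib and Sox8 did not exceed 0.328 and 0.0663.

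The promoters of the genes below are shown because Agr2, Gp2 and Spdef had their lowest values at day 0 and their highest at day 15, while Muc1 was level from day 5 on. Each sequence is the window from 250 bases before to 50 after the RefSeq start (GRCm38.p6), 5′ to 3′ on the gene's strand. Capitals mark matches on either strand to the ETS core GGAT, to the forkhead motifs TGTTTAC and TATTTAC, or to the TATA box TATAAA.
Agr2 (chr12:35992675-35992974, plus strand): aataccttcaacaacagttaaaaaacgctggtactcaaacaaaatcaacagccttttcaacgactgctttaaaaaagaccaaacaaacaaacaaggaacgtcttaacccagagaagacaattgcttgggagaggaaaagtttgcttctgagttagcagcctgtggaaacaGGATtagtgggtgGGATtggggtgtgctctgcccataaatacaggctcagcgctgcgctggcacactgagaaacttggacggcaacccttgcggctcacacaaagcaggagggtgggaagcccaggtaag
Gp2 (chr7:119459223-119459522, minus strand): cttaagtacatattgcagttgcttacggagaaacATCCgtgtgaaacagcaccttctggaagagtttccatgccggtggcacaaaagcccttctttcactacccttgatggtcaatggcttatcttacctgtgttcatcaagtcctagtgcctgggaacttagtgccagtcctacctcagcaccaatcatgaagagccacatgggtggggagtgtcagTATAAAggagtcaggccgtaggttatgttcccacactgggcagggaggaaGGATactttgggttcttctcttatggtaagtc
Spdef (chr17:27728902-27729201, minus strand): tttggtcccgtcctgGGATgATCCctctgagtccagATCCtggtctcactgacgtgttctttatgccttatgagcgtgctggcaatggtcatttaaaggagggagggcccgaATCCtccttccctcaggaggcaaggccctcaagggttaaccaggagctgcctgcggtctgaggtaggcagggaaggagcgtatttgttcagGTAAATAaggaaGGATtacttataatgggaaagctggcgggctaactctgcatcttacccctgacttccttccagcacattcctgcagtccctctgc
Muc1 (chr3:89228806-89229105, plus strand): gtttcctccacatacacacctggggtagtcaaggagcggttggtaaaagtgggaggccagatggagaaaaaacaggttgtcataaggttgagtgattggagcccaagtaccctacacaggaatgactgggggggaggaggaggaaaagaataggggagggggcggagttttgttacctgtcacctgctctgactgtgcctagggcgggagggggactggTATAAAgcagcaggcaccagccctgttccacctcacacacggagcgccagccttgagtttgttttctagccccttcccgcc

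RefSeq promoter windows were matched for 7 of the 10 genes. A GGAT core was found 5 times in the Spdef window, 2 times each in those of Agr2, Gp2, Muc4 and Fcgbp, 1 time in that of Muc16, and not in that of Muc1. Other forms of the ETS core were not searched, so the lack of GGAT in Muc1 does not show a lack of ETS sites. This short core is present in 79.6% of 32851 promoter windows of the same length, and in 6 of the 7. A forkhead match was found in Spdef alone of the 7, and in 6.54% of all windows. A TATA box match was found in Gp2, Muc1 and Muc4, and in 13.6% of all windows. The matches describe these letters only.

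Muc1, a membrane mucin that spans the apical surface of most epithelia, had FPKM of 10.9 (5.37 to 16.4) at day 0, 81.6 (43.7 to 120) at day 5 and 81.8 (46.5 to 117) at day 15. The intervals of both groups after the burn lay above that of day 0, and they overlapped each other almost fully. Muc1 was 7.51-fold higher at day 5 and 7.53-fold higher at day 15 than at day 0. The day 5 value was 99.7% of the day 15 value, against 4.99% for Muc5ac, 8.99% for Gp2, 10.9% for Tff1, 21.4% for Agr2 and 29.1% for Spdef. The ratio of day 15 to day 5 that the bounds of Muc1 allow runs from 0.389 to 2.68, whereas for Muc5ac it runs from 7.02 to 65.7. The gene (chromosome 3, 89229057 to 89233381, plus strand) lies in a locus 4 times its length that also holds Trim46, and its second row had 0.175, 0.149 and 0.

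Muc4, a large membrane mucin of the conjunctival and corneal surface that can bind the receptor Erbb2, had the highest FPKM of the 9 genes at day 0. It stood at 69.5 (27.9 to 111) at day 0, 63.1 (25.8 to 100.5) at day 5 and 77.0 (31.2 to 123) at day 15. All 3 intervals overlapped, and the ratio of day 15 to day 0 that the bounds allow runs from 0.281 to 4.40, so that differences within that range were not detectable. Its exons overlap those of Muc20, another membrane mucin on the opposite strand, by 627 of 11757 bases, and the strandedness of the libraries is not given in the sources used here. Muc20 was at 42.7 (0 to 136), 52.8 (0 to 136) and 63.3 (0 to 165).

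Muc16, the largest membrane mucin of the ocular glycocalyx, had no row of its own name. Because of that, rows were looked up by position inside the annotated gene (chromosome 9, 18495455 to 18674530, minus strand, mm10), outside the rule by which the other genes were chosen. There were 6 rows without a symbol, each of which covers annotated Muc16 exons. All 6 were listed at 0 at day 0, and all 6 had a higher value at day 15 than at day 5. The row 30.9 to 31.4 kb downstream of the gene's start lies wholly within an exon (18643093 to 18643665) and had 0.358 (0 to 0.987) at day 5 and 1.76 (0 to 3.92) at day 15. The row 32.6 to 36.9 kb from the start, also all exon (18637673 to 18641957), had 0.0843 (0 to 0.204) at day 5 and 0.632 (0.0492 to 1.21) at day 15.

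The row with the highest values among these covers the start of the gene (18647744 to 18674571) and had 1.07 (0 to 2.77) at day 5 and 7.92 (0 to 18.1) at day 15. A second row with the same ends had 0.0631 and 0.911, and the table does not give the strand of either. The remaining rows, in the distal part of the gene, had 0.165 and 1.31 (18571508 to 18580582) and 0.199 and 1.05 (18495452 to 18498709). Across the 6 rows, the day 15 value was 4.92-fold to 14.5-fold that of day 5. None of the 6 was apart in any comparison, since 5 of the day 15 intervals reached 0 and the remaining row stayed under an FPKM of 1. Of 2088 rows without a symbol that had an FPKM of at least 0.5 at day 15, 70 (3.35%) were listed at 0 at day 0. The 6 rows lie inside 1 annotated gene and are not independent. Their strand is not given, so it is not known which of them hold Muc16 transcripts and which, if any, the opposite strand. A listed 0 does not show that the transcript was absent.

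**Figure D3:**
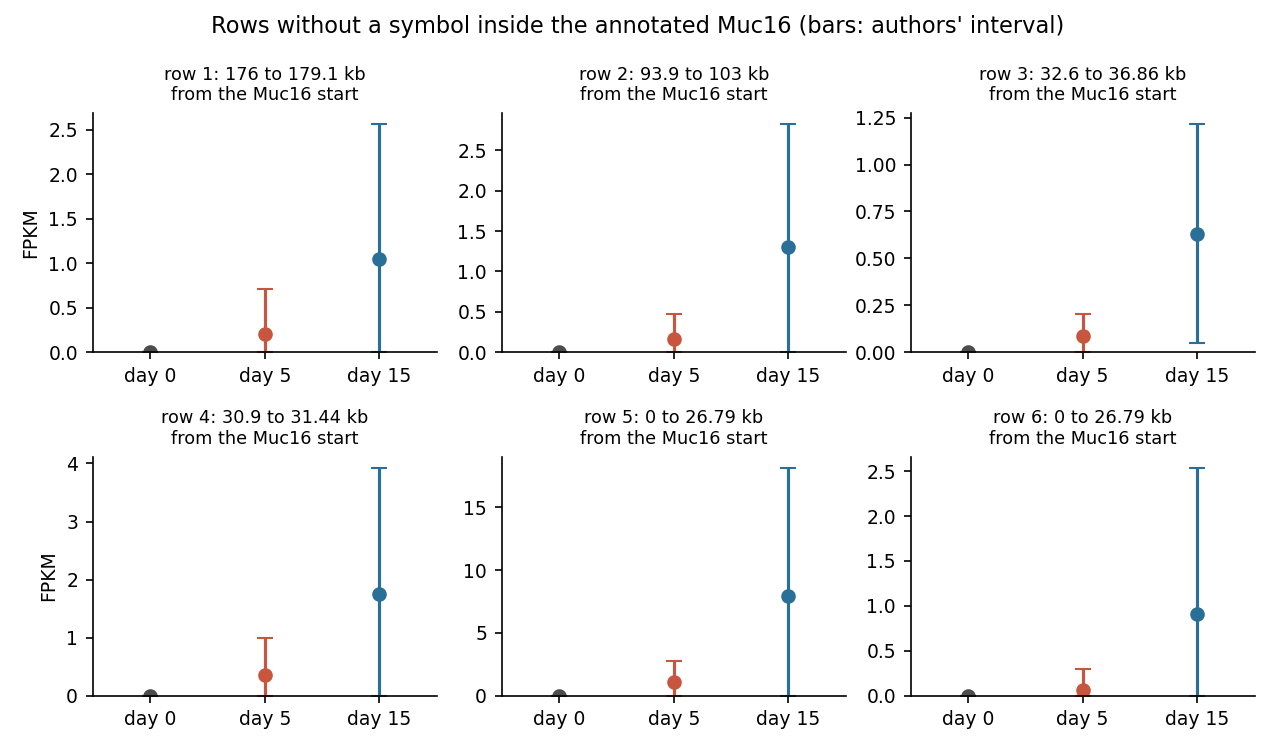
FPKM (y axis, linear, own scale for each panel) at day 0, day 5 and day 15 for the 6 rows without a symbol inside the annotated Muc16, with panel titles giving the distance in kb from the gene's start; points are the authors' FPKM and bars their interval. Every row is at 0 at day 0 and highest at day 15, and the day 15 interval reaches 0 except in the row at 32.6 kb.

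Of 12 other membrane mucins and mucin-like surface proteins, 8 had a row. At day 5, 3 were higher and apart from day 0 (Muc13, Emcn and Mcam), beside 3.42% of all rows. Muc15 was lower and apart, beside 2.5% of all rows. Muc13, a membrane mucin of simple epithelia, had 0.405 (0.0569 to 0.752) at day 0, 5.73 (2.56 to 8.90) at day 5 and 1.78 (0.639 to 2.91) at day 15. Muc15 had 27.6 (15.0 to 40.2) at day 0, 8.41 (4.23 to 12.6) at day 5 and 17.7 (9.37 to 26.1) at day 15. Emcn, a sialomucin of blood vessel endothelium, had 7.97 (0.804 to 15.1), 34.7 (16.2 to 53.2) and 40.5 (17.8 to 63.1), and Mcam, an adhesion molecule of vessel walls, had 1.70 (0.429 to 2.97), 9.18 (4.39 to 14.0) and 7.73 (3.41 to 12.0). At day 15 against day 0, 2 of the 8 were higher and apart (Emcn and Mcam), beside 2.91% of all rows, and none was lower and apart. Among 10 partners and sheddases of membrane mucins, 1 was higher and apart at day 5 (the membrane protease Mmp14) and 1 lower and apart (Ezr), and none was apart at day 15. Ezr, which links Muc1 and Muc16 tails to the actin skeleton, had 244 (113 to 375), 70.2 (39.2 to 101) and 85.2 (46.9 to 124).

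FPKM is scaled to length, so levels can be ordered between genes within a group. At day 0 the order was Muc4, Muc1, Fcgbp, Agr2, Spdef, Gp2, the Clca1 row, Muc5ac and Tff1. The intervals separated neighbours in that order between Muc4 and Muc1 and between Agr2 and Spdef, and no others. At day 5 the order was Muc1, Agr2, Muc4, Gp2, Tff1, Fcgbp, Muc5ac, Spdef and the Clca1 row, with Muc4 and Gp2 the only neighbours apart. At day 15 it was Agr2, Gp2, Tff1, Muc1, Muc4, Muc5ac, Fcgbp, Spdef and the Clca1 row, and every pair of neighbours had overlapping intervals. Agr2 went from the fourth place to the top, and Muc4 from the top to the fifth.

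Among 21 enzymes that build O-linked sugar chains on mucins, all with a row, 4 were higher and apart at day 15 against day 0 (Galnt6, C1galt1, Gcnt1 and B3gnt3), beside 2.91% of all rows, and 1 was lower and apart (Galnt4), beside 1.81%. The median log2 ratio of the 21 was 0.13. At day 5, 2 were higher and apart (Gcnt1 and B3gnt3) and 1 lower and apart (Galnt4). Gcnt1, which branches O-glycans, had 0.248 (0 to 0.496) at day 0, 5.15 (2.48 to 7.81) at day 5 and 3.21 (1.47 to 4.95) at day 15. B3gnt3, which extends them, had 3.44 (1.79 to 5.08), 14.6 (7.97 to 21.2) and 18.3 (10.1 to 26.5). C1galt1, which adds the galactose that follows the initial sugar, had 1.78 (0.549 to 3.02), 5.54 (2.49 to 8.58) and 7.01 (3.14 to 10.9). Galnt4, an enzyme that starts the chains, had 95.7 (52.3 to 139), 23.6 (12.5 to 34.6) and 35.4 (19.3 to 51.5).

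Genes of granule docking, ion transport and secretagogue receptors went in both directions. Of 19, all with a row, the same count of 2 higher and apart (Rab27a and Cftr) and 2 lower and apart (Scin and Aqp5) was found at day 5 and at day 15 against day 0. Rab27a, which docks secretory granules at the membrane, had 9.23 (4.74 to 13.7), 41.0 (23.0 to 59.0) and 68.5 (37.2 to 99.8). Cftr, a chloride channel that hydrates mucus, had 0.0708 (0 to 0.162), 1.60 (0.707 to 2.496) and 1.57 (0.744 to 2.39). Aqp5, a water channel of corneal epithelium and of secretory glands, had 1062 (338 to 1786), 25.6 (10.9 to 40.2) and 103.9 (56.0 to 152). Scin, which severs actin filaments during secretion and is also abundant in corneal epithelium, had 224.5 (118 to 331), 30.2 (16.1 to 44.4) and 53.4 (29.5 to 77.4).

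**Figure D4:**
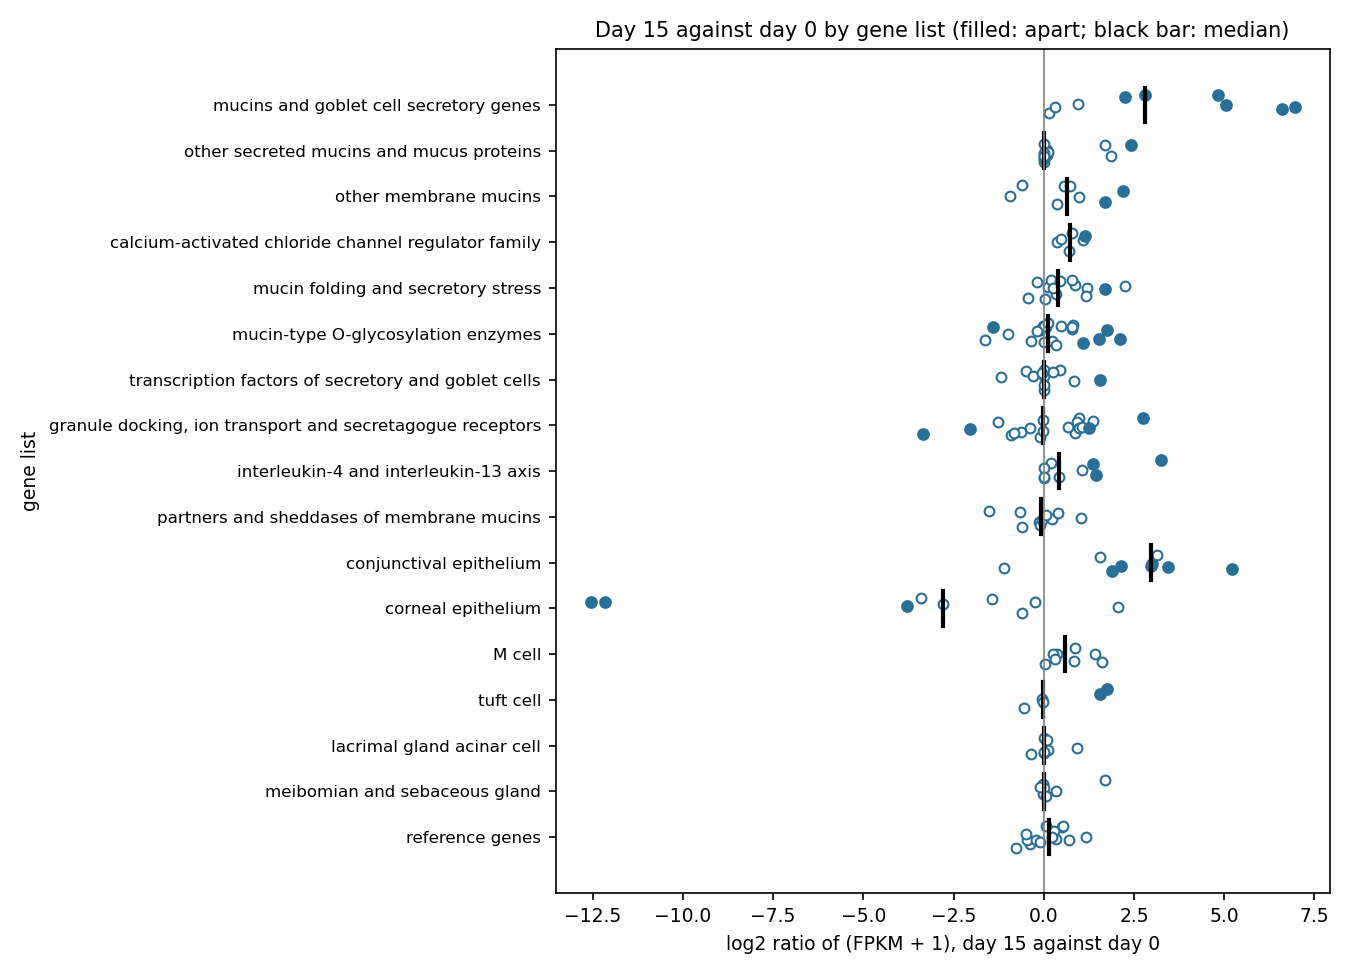
Log2 ratio of (FPKM + 1) at day 15 against day 0 (x axis) for every gene with a row in each gene list (y axis), without Krt12; filled points are apart, open points are not, vertical marks show the median over the points drawn and vertical scatter has no meaning. The median of the mucins and goblet cell secretory genes is 2.80 and that of the conjunctival epithelium list 2.96. The other secreted mucins have a median of 0.00, and 12 of these 13 had an FPKM under 1 at day 0 and 10 at day 15.

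Markers of the epithelia from which these transcripts could come differed in the same samples. Of 9 conjunctival epithelial genes, 5 were higher and apart at day 5 (Krt7, Krt8, Krt18, Krt19 and Tspan8) and 6 at day 15 (Ly6d in addition). The shares over all rows compared were 3.42% and 2.91%. Psca was lower and apart at day 5, as were 2.5% of all rows. Summed over the 9 conjunctival genes, FPKM was 12392 at day 0, 5248 at day 5 and 15567 at day 15, and none was listed at 0. Much of the day 0 sum was Psca, a surface protein also present in these uninjured corneas, at 10585 (3879 to 17290), 757 (424 to 1090) and 4903 (2003 to 7803). Krt4 had 757 (369.5 to 1145), 2070 (679 to 3462) and 6734 (429 to 13038). Krt13 had 769 (361 to 1176), 765 (320 to 1209) and 2271 (527 to 4016). These keratins were not apart in any comparison, and with Psca they made up most of the day 15 sum. Tspan8, a tetraspanin, had 1.11 (0 to 2.496), 45.0 (23.6 to 66.3) and 77.4 (42.2 to 113). Krt8, a keratin of simple epithelia, had 1.36 (0.424 to 2.30), 22.4 (11.5 to 33.4) and 17.4 (10.7 to 24.2). The part of a change in tissue composition in the values of the secretory genes was not tested.

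Of 9 corneal epithelial genes with a usable day 0 value, 5 were lower and apart at day 5 and 3 at day 15. The shares over all rows compared were 2.5% and 1.81%. The summed FPKM of the list was 38545 at day 0, 1759 at day 5 and 3109 at day 15. That for day 0 counts Krt12, the defining keratin of corneal epithelium, as 0, because its value there was not computed for excess of data (status HIDATA), so that this sum is too low. Lypd2, at 13645 (6228 to 21062), and Slurp1, a secreted protein of corneal epithelium, at 11780 (2517 to 21042), made up most of the day 0 sum. Lypd2 had 1.37 (0 to 3.76) at day 5 and 1.96 (0 to 5.37) at day 15, and Slurp1 had 1.12 (0 to 3.45) and 0.971 (0 to 3.30). Dsg1a, a desmosomal cadherin, had 194.9 (98.9 to 291), 2.53 (0.874 to 4.19) and 13.2 (7.04 to 19.4), and like Lypd2 and Slurp1 it was lower and apart from day 0 at both days. Aldh3a1, a soluble enzyme of corneal epithelium, had 9150 (998 to 17302), 303 (165 to 441) and 866 (437 to 1294), and was lower and apart at day 5 but not at day 15. The list was not uniform: Krt14, a keratin of basal epithelial cells, had more after the burn, at 179.6 (92.4 to 267), 500.2 (153 to 847) and 759.9 (205 to 1315). Pax6, a transcription factor of the eye, had 127.9 (119.5 to 136), 63.6 (40.8 to 86.5) and 107.5 (72.0 to 143). Neither was apart in any comparison. For Pax6 the day 5 interval lay wholly below that of day 0, but the log2 ratio fell just short of 1 in size. The day 15 interval of Pax6 overlapped that of day 0. Markers of glands near the eye were low: the lacrimal list of 7 genes summed to 6.23, 4.10 and 6.76, with Sval1, Prol1 and Smr3a listed at 0 in all groups, and none was apart. Their highest values were those of Car6, with 4.63 at day 0 and 3.38 at day 15, and Elf5 had 2.35 at day 15. The 7 meibomian and sebaceous genes summed to 10.9, 42.7 and 36.5, most of it Soat1, with Far2 at 0.668 or less, and none was apart. None of 14 reference genes, of which Eef1a1 and Ppia were the most abundant, was apart in any comparison, with a median log2 ratio of 0.18 at day 5 and 0.14 at day 15 against day 0.

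The genes with a course most like that of Muc5ac were ranked by the distance between their 2 log2 ratios (day 5 against day 0 and day 15 against day 5) and those of Muc5ac, over the 3 pooled values, among 6729 rows with 1 named gene and FPKM of at least 10 in some group, with the mucins and goblet cell genes described here left out of the ranking. The 8 nearest of these other genes were Reg3g, Rnu12, Spink12, Ly6d, Snord15b, AW112010, Car2 and Krt4, at distances of 0.93 to 1.97. Snord15b, unlike Muc5ac, was listed at 0 at day 5 as well as at day 0, with 16.4 (2.17 to 30.6) at day 15. Reg3g, a lectin that kills bacteria, was listed at 0 before the burn, with 0.843 (0 to 1.92) at day 5 and 12.5 (4.53 to 20.5) at day 15. Car2, a carbonic anhydrase, had 2.41 (0 to 5.15), 7.46 (1.25 to 13.7) and 31.6 (14.1 to 49.2). Ly6d, a surface protein of squamous epithelia, had 8.13 (0.823 to 15.4), 8.74 (1.19 to 16.3) and 97.6 (55.8 to 139). Among the mucins and goblet cell secretory genes, Agr2 was the closest to Muc5ac, at 1.93, followed by Gp2 at 2.21, Tff1 at 2.23 and Spdef at 2.40, and Muc1 was the farthest, at 3.94. This order holds for a pseudocount of 1 and changes with a smaller one. With 0.1, the 2 ratios were 3.95 and 4.24 for Muc5ac, 5.12 and 3.47 for Gp2, and 2.73 and 2.22 for Agr2, so that Gp2 was nearer than Agr2. Distances over 3 values describe the shape of a course, depend also on the level of a gene through the pseudocount, and say nothing of shared control.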

How the data were processed

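Values are FPKM, as deposited by the authors in 1 gene table with a pooled FPKM, an interval and a status for each of 3 groups. The table has 28539 rows and 0 columns of single samples, so that sequencing depth is unknown and precision rests on the authors' intervals. Per the submitters' processing notes, the tools were Cufflinks 2.2.1 with Cuffdiff, Bowtie2 2.2.6 and TopHat2 2.1.0, with the mm10 build; the annotation is not given in the sources used here. Among values of these genes with FPKM of at least 1 (21 of 27), the upper arm of the interval was 43.1% to 114% of the FPKM, with a median of 52.6%.

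From these, log2 ratios of (FPKM + 1) were computed for all rows, which understates differences of low genes. A row was called apart by the rule given above, with status OK in both groups. A run on simulated data served only to find coding faults: its pass mark was lowered after earlier runs missed it, and no statement rests on it. A gene with several rows is represented by the row with the highest FPKM. Locus starts in the table count from 0 and were raised by 1: after that, 5754 equal the annotated start, against 537 before. Gene positions come from GENCODE M21 (GRCm38). The 10 genes, the 16 other lists and the rules were chosen with earlier results of these data known. From each list, up to 4 genes called apart with the highest log2 ratios in size are named, or, where fewer than 2 were called, also those with the highest FPKM; the 8 genes nearest to Muc5ac follow their own rule. Named outside these rules, with values seen, are Agr3, Muc2, Muc6, Muc20, Galnt6, Clca3, Clca4c, Il4, Spib, Sox8, Trpm5, Chat, Pou2f3, Krt7, Krt12, Krt13, Krt14, Pax6, Krt18, Krt19 and genes listed at 0. Alternatives varied the pseudocount, the filter, the ratio, the use of intervals, the scaling and the summing of rows. Python 3.11.15, numpy 2.4.6, pandas 2.3.3 and matplotlib 3.10.9 were used.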

Additional observations from a re-analysis of the deposited data

How the results depend on the processing

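Under 11 alternatives, all 3 counts of genes higher and apart stayed within 1.5 times their main value. The count lower and apart at day 5 against day 0 went from 0 to 1 (Fcgbp, log2 ratio -1.21) both with interval widths combined as a root sum of squares and with intervals ignored. Of 297 single values, 286 kept their call, 5 lost it and 6 gained it, and none that was called changed direction. Muc5ac at day 5 against day 0 lost its call with a pseudocount of 5 (0.40), with FPKM of at least 5 and with a log2 ratio of at least 2, and Spdef at day 15 lost its call with a pseudocount of 5 (0.96). Fcgbp at day 15 against day 5 lost its call with a log2 ratio of at least 2. The Clca1 row at day 15 gained a call with a pseudocount of 0.1 (2.81) or a log2 ratio of at least 0.5. With intervals ignored, Tff1 at day 5 against day 0 (3.52) and Spdef at day 15 against day 5 (1.32) gained one. Rescaling moved the groups by at most 0.10 on the log2 scale and changed no call. No paired analysis was possible because the table holds no columns for single samples, and for the same reason no replicate could be left out.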

Other observations

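The interleukin-4 and interleukin-13 axis is known to drive goblet cell formation in several mucosae. Of 9 genes of the axis, 3 were higher and apart at both days against day 0 (Il33, Il13ra1 and Il4ra). None was lower and apart. Over all rows compared, 3.42% were higher and apart at day 5 and 2.91% at day 15. A link of these genes to the secretory genes was not tested. Il33, an alarm cytokine of epithelia, had an FPKM of 6.02 (2.23 to 9.81) at day 0, 79.9 (45.0 to 115) at day 5 and 66.4 (39.3 to 93.5) at day 15. Il13ra1, a receptor chain for interleukin-13, had 10.7 (5.53 to 15.9), 37.2 (20.95 to 53.4) and 31.3 (17.4 to 45.2). Il4ra, the receptor chain shared by both cytokines, had 1.39 (0.531 to 2.24), 9.60 (6.41 to 12.8) and 5.16 (3.11 to 7.20). Il13 was listed at 0 in every group, and Il4 was listed at 0 at days 0 and 5 and had 0.154 (0 to 0.527) at day 15.

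Of 5 tuft cell genes with a row, 1 was higher and apart at day 5 and 2 at day 15 against day 0. The shares over all rows compared were 3.42% and 2.91%. Dclk1, a kinase of tuft cells and neurons, had 1.002 (0.163 to 1.84), 7.32 (3.54 to 11.1) and 4.86 (2.33 to 7.38). Avil, an actin-binding protein, had 0.123 (0 to 0.276), 0.876 (0.0761 to 1.68) and 2.77 (1.03 to 4.51). Trpm5, the taste channel that defines tuft cells, did not exceed 0.103, and Chat did not exceed 0.0591. The remaining gene, Pou2f3, went the other way, with 2.47 (0.420 to 4.52), 0.872 (0 to 1.76) and 1.36 (0.0566 to 2.67), and was not apart.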
